A study of Mus musculus with 2 samples.

Results

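Galanin and proenkephalin are precursors of secreted peptides best known from neurons, and both of their genes, Gal and Penk, were measured in the skin of mouse embryos at E13.5, counted in days of gestation. They are 2 of the 32286 features counted, found by their symbols. Both were chosen because their levels differed between the dermal cells of the libraries, so the levels in that contrast are given as a description only. Gal (ENSMUSG00000024907) lies on the minus strand at chr19:3409915-3414544 and Penk (ENSMUSG00000045573) on the minus strand at chr4:4133531-4138819 of GRCm38, and both are annotated as protein-coding. The transcript Gal-201 has 6 exons, of which 5 hold coding sequence, and Penk-201 has 2 exons.

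The series holds 2 single-cell RNA libraries, a mutant and a control, from dorsolateral flank skin of littermates. Mice carrying Axin2CreER, an inducible recombinase made in cells that express the Wnt target Axin2, were bred to mice carrying Rosa-lox-STOP-lox-SmoM2YFP, an allele that makes an activated, fluorescently tagged form of the Hedgehog transducer Smoothened once the stop is removed. The control is titled with the SmoM2YFP allele and no recombinase, so that allele is named for both groups. The agent and day of induction are not given in the sources used here. Each library pooled 2 to 3 embryos, dissociated with 0.25% trypsin for 20 min at 37 °C and stained with DAPI for sorting. There is 1 library per group, so no difference between them has a replicate check, no p-value is given, and every range beside a value is a 95% interval that covers counting error only.

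The genotype entries contradict the titles: the library titled mutant is entered as SmoM2 WT and the one titled control as SmoM2 MUT. The groups here follow the titles. In dermal cells the eYFP transcript was at 29.96 counts per 1000000 UMIs (CPM) in the library titled mutant and 0.466 CPM in the one titled control, and Ptch1, a receptor gene that Hedgehog signaling induces, was at 256 and 5.38 CPM. The transcripts therefore go with the titles. A total of 37 barcodes were shared by the kept cells of both libraries, and leaving them out gave Gal at 70.8 and 0.558 CPM and Penk at 91.0 and 54.5 CPM in mutant and control dermal cells.

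Galanin acts on nearby cells through G-protein-coupled galanin receptors. Proenkephalin holds several short enkephalin peptides between pairs of basic residues, where convertases cleave it, and the enkephalins act on opioid receptors. In embryonic skin, Wnt signaling in the upper dermis and Hedgehog signaling from the hair placode precede the dermal condensate, the knot of dermal cells that becomes the papilla of the hair follicle.

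The enkephalin repeats of Penk are shown because they are what the transcript encodes for secretion. Read from the coding sequence of Penk-201 (GENCODE M21, GRCm38; 804 coding bases), each copy is given with its first coding position in the name, and capitals mark the last codon, ATG for methionine or CTG for leucine.
Repeat at 298: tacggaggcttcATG
Repeat at 319: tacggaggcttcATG
Repeat at 406: tatggcggcttcATG
Repeat at 559: tatgggggcttcATG
Repeat at 631: tacgggggcttcATG
Repeat at 691: tatgggggcttcCTG
Repeat at 784: tacgggggctttATG
Of these 7 copies, 6 end in methionine and 1 in leucine, written in 6 different sequences. All 7 are preceded by 2 basic codons and 5 have 2 basic codons on both sides.

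The 250 bases before the start of Gal are shown because the groups differ in an activator of Hedgehog signaling, whose GLI factors bind a known motif. They lie at chr19:3414545-3414794 on the minus strand (RefSeq, GRCm38.p6), and capitals mark matches with 1 mismatch to the GLI motif TGGGTGGTC, searched on both strands.
Gal promoter: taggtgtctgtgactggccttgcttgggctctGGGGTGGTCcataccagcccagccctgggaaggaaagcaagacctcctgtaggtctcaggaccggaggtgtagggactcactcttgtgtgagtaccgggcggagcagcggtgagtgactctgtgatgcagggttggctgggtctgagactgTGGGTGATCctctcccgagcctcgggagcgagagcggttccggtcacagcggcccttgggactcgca
The matches start 218 and 67 bases before the gene's start, on the printed strand, and do not overlap. Of 32851 windows of this length, 5.79% held at least 1 such match and 0.256% held 2 or more, while 0.225% held the exact motif. The core TCAAAG of TCF and LEF factors and the cyclic AMP response half-site TGACG had no match in the printed bases. At least 1 match was in 13.8% and 17.8% of the windows, respectively. A match of letters is not evidence of binding, and the lack of a match is not evidence against it. Of the 2 genes, 1 was matched in the promoter table, and Penk is named only.

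After filtering, 11553 control and 8521 mutant cells were kept, with median depths of 7444 and 6663 unique molecular identifiers (UMIs, each standing for 1 captured transcript). Cells were clustered without Gal and Penk and the clusters named by marker lists. Clusters named dermal mesenchymal-like, called dermal below, held 7589 control and 4835 mutant cells, with medians of 6992 and 6003 UMIs, and in both libraries all 9 dermal markers reached 10 CPM. In control and mutant dermal cells the 8 neuronal markers summed to 39.1 and 45.8 CPM and the 9 epidermal markers to 44.1 and 50.2 CPM, while the 8 erythroid markers summed to 176 and 1182 CPM. Dermal cells fell in different clusters by library: clusters 2, 0, 4, 7, 9 and 8 held nearly all control dermal cells, and clusters 1, 6 and 13 held most mutant ones, with 7, 5 and 0 control cells. A cluster found mostly in 1 library may reflect that library rather than a cell type.

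Gal was close to absent from control dermal cells and was carried by about 1 in 10 mutant ones. Control dermal cells held 31 Gal UMIs in 13 cells, 0.556 CPM (0.378 to 0.789). Mutant dermal cells held 2190 UMIs in 650 cells, 70.6 CPM (67.7 to 73.6). The ratio was 127 (89.2 to 187). Among all genes at 10 CPM or more in either library, 141 of 8135 (1.73%) were at least 2-fold higher in the mutant with 5 CPM added to each value and 83 (1.02%) at least 2-fold lower. Gal passed 2-fold and Penk did not, and since both were chosen on this contrast nothing is read from that count.

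With every cell thinned to 3000 UMIs, 501 of 4538 mutant dermal cells (11.0%, 10.1 to 11.99) and 5 of 7355 control ones (0.0680%, 0.0221 to 0.159) carried a Gal UMI. Without thinning the shares were 13.4% and 0.171%. Epidermal-like cells gave the background within each library: 5 of 1390 mutant cells (0.360%) with a median depth of 7657 UMIs, and 0 of 554 control cells at 9783.5 UMIs, which allows a share of up to 0.542% and a level of up to 0.519 CPM at 3 counts. The mutant dermal share was far above that background. In the control the dermal share lay under the limit that the epidermal cells allow, so over the whole class the classes could not be told apart, although 2 control dermal cells held 8 Gal UMIs each. Of the mutant carriers, 192 had 1 Gal UMI, 289 had 2 to 4, 150 had 5 to 9 and 19 had 10 or more, up to 24.

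Penk UMIs were found in dermal cells of both libraries. Mutant dermal cells held 2830 Penk UMIs in 1213 cells, 91.3 CPM (87.9 to 94.7), and control ones 3042 UMIs in 1627 cells, 54.6 CPM (52.7 to 56.6). The ratio was 1.67 (1.59 to 1.76). Thinned to 3000 UMIs, 16.5% of mutant and 11.3% of control dermal cells carried a Penk UMI, and unthinned 25.1% and 21.4%. In epidermal-like cells, at median depths of 7657 and 9783.5 UMIs, the thinned shares were 1.39% (0.838 to 2.16) in the mutant and 3.28% (1.96 to 5.14) in the control, and the unthinned ones 2.88% and 9.75%. The dermal shares were thus above those of the epidermal class, while erythroid-like cells had thinned shares of 9.60% and 12.7% in mutant and control. The most Penk UMIs in a cell were 24 in the mutant and 14 for control cells. Most carriers held few copies: 630 mutant and 947 control cells had 1 Penk UMI.

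Each pool held embryos of both sexes, which allowed the levels to be read in 2 parts of each library. Mutant Gal was alike in dermal cells with an Xist UMI and in those with a Y-linked UMI, at 67.4 and 68.9 CPM. Control Gal was at 1.07 CPM (24 UMIs) and 0.293 CPM (6 UMIs), so the ratio moved to 62.9 (42.0 to 98.6) in Xist cells and 235 (107 to 643) in Y cells. Of the 24 UMIs in control Xist cells, 18 were in 4 cells rich in Tac1, which are described below. For Penk the mutant values were 77.8 and 98.9 CPM, the control values 54.8 and 51.6 CPM, and the ratios 1.42 and 1.92. Cells with neither kind of UMI were in neither part: 1175 mutant cells (24.3%) and 1637 control ones (21.6%), with median depths of 5035 and 6526 UMIs. Their Gal was at 84.2 CPM (77.2 to 91.6) in the mutant and 0.0924 CPM (1 UMI) in the control. Their Penk was at 110 (102 to 118) and 60.5 CPM (55.96 to 65.3). The direction was the same in both parts for both genes, and these parts are not replicates of a genotype.

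Gal in the mutant dermis lay in clusters 6 and 13. They are described together after their values were seen: their 1674 cells were 34.6% of mutant dermal cells and held 96.7% of the Gal UMIs and 94.9% of the carriers. Gal was at 236 CPM in cluster 6, led by Cdkn1a, Foxd1, Trp53inp1 and Trps1, and at 179 CPM in cluster 13, led by Foxd1, Cyp26b1 and Hapln3. Cluster 1, the mutant cluster of most cells (1964), had 2.31 CPM. Among smaller mutant clusters, cluster 4 had 24.6 CPM in 79 cells, and the 38.7 CPM of cluster 9 came from 1 cell. The Hedgehog targets were high in all 3 of these clusters. Ptch1 was at 379, 410 and 270 CPM in clusters 6, 13 and 1, and Hhip, which encodes a Hedgehog-binding inhibitor, at 129, 135 and 227 CPM. Lef1, a transcription factor and target of Wnt signaling, was at 193, 193 and 11.8 CPM, and Foxd1, a forkhead factor of condensate cells, at 190, 254 and 27.7 CPM. Gal was therefore high where Ptch1, Lef1 and Foxd1 were all high, and low in the mutant cluster with Ptch1 and Hhip but little Lef1.

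**Figure D1:**
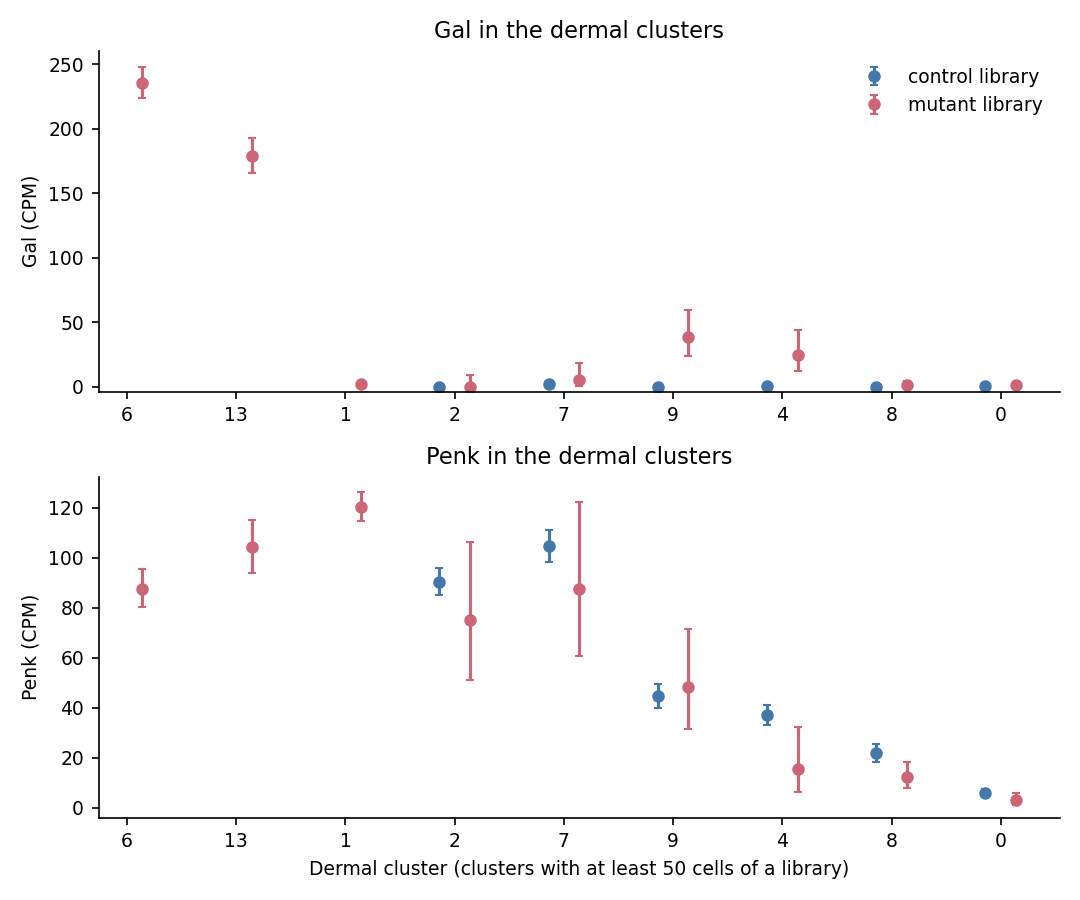
Gal (top) and Penk (bottom) in CPM, by dermal cluster and library, with 95% Poisson intervals as bars; clusters under 50 cells in a library are not drawn. Gal stands out in mutant clusters 6 and 13, at 236 and 179 CPM, while Penk is spread over clusters of both libraries.

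Penk was spread differently. In the control, clusters 2 and 7, led by Calb1, Nrgn and Nrcam, had 90.4 (85.2 to 95.8) and 105 CPM (98.2 to 111), and cluster 9, led by cell-cycle genes, 44.6 CPM. Clusters 2, 7 and 9 held 51.6% of control dermal cells and 82.0% of the Penk UMIs. Cluster 4, led by Aspn and Nppc, had 37.0 CPM, cluster 8 had 21.8 CPM and cluster 0, led by Prph, Ccn3 and Col14a1, had 5.75 CPM. Control Penk thus ran from 105 CPM in cluster 7 down to 5.75 CPM in cluster 0.

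In the mutant, cluster 1 had 120 CPM of Penk, cluster 13 had 104 CPM and cluster 6 had 87.7 CPM. Cluster 1 made up 40.6% of mutant dermal cells and held 62.7% of Penk UMIs but 1.55% of Gal UMIs, and clusters 6 and 13 together held 32.8% of Penk UMIs. The clusters with at least 50 cells in both libraries did not show the mutant excess. Mutant cluster 2 had 75.0 CPM (50.9 to 106) against 90.4 CPM in the control, cluster 7 had 87.4 (60.6 to 122) against 105 CPM, and cluster 9 had 48.4 (31.3 to 71.5) against 44.6 CPM. Mutant clusters 4, 8 and 0 had 15.7 (6.30 to 32.3), 12.4 (7.95 to 18.5) and 2.95 CPM (1.27 to 5.81), against control intervals of 33.2 to 41.2, 18.5 to 25.6 and 4.34 to 7.49 CPM. No shared cluster was higher in the mutant beyond counting error, and the mutant level of the whole class rested on clusters 1, 6 and 13.

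The genes beside Gal were read by comparing 501 mutant dermal cells with a Gal UMI with 4037 without one, all thinned to 3000 UMIs. Of 3249 genes at 50 CPM or more in either set, 115 (3.54%) were at least 2-fold higher in Gal cells and 106 (3.26%) at least 2-fold lower, with 5 CPM added. Cells of 1 library are not replicates, and the median log2 ratio of all genes was -0.00. Before thinning the Gal cells had a median of 5335 UMIs and the others 6314.

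The 12 genes with the highest ratios beside Gal included transcription factors, a growth factor and cytoskeletal genes. Trps1, a GATA-type factor needed for normal hair, was at 255 CPM with Gal and 21.8 CPM without (log2 ratio 3.28). Syne1, a nuclear envelope spectrin-repeat gene, was at 160 and 16.1 CPM, and Tubb3, a beta-tubulin common in neurons, at 112 and 10.5 CPM. Smoc1, a matricellular gene, was at 51.9 and 3.14 CPM, and Lef1 at 329 and 50.3 CPM. Nrtn, which encodes the growth factor neurturin, was at 199 and 29.4 CPM. Foxd1 was at 335 and 59.5 CPM and Sox18, a condensate transcription factor, at 135 and 22.4 CPM. The remaining 4 of the 12 highest were the kinase gene Dclk1 (236 and 38.9 CPM), the kinesin gene Kif21a (56.6 and 6.28 CPM), the sulfotransferase gene Hs3st6 (50.6 and 5.70 CPM) and Robo2, a Slit receptor gene (217 and 38.7 CPM).

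Because Tubb3 is a neuronal marker, the whole neuronal list was read in the same cells. Its 8 genes summed to 144 CPM in Gal cells and 41.3 CPM in the others, and Tubb3 alone made 112 CPM of the former. Stmn2 was at 28.6 and 3.14 CPM, the other 6 were under 2 CPM in Gal cells, and 3 of these, Elavl3 and Elavl4 among them, were at 0 there. The erythroid list summed to 947 and 1206 CPM. The part of other cell types' RNA in these differences was not tested.

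The 6 genes with the lowest ratios included secreted and matrix genes. Ptn, which encodes the growth factor pleiotrophin, was at 142 CPM with Gal and 2337 CPM without (log2 ratio -3.99). Postn, encoding the matrix protein periostin, was at 11.3 and 197 CPM, and Lox, the collagen cross-linking lysyl oxidase, at 5.99 and 102 CPM. Nrk (4.66 and 143 CPM), Fibin (7.32 and 143 CPM) and the angiotensin receptor gene Agtr2 (11.98 and 197 CPM) completed the 6 lowest.

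**Figure D2:**
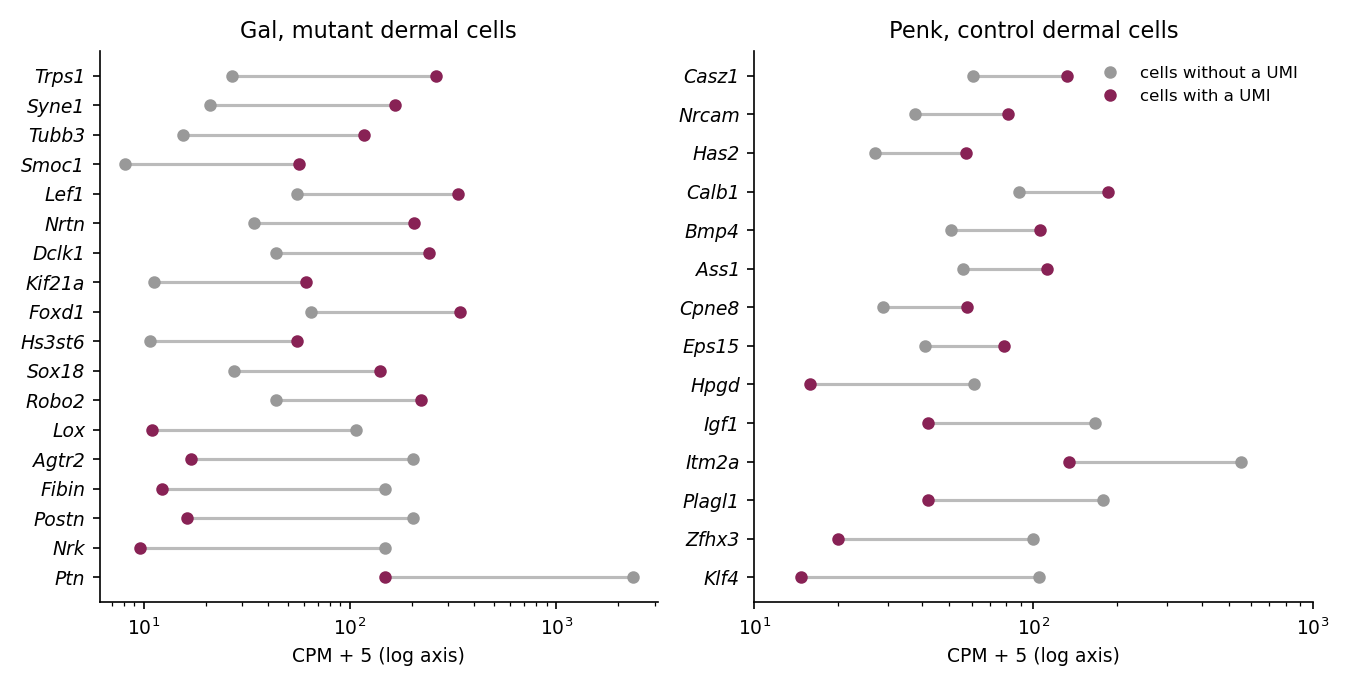
CPM with 5 CPM added, on a log axis, in cells with (purple) and without (grey) a UMI of the member: left, 18 genes beside Gal in mutant dermal cells; right, 14 genes beside Penk in control dermal cells. The Gal pairs are far apart, as for Trps1 at 255 and 21.8 CPM, while the upper Penk pairs lie close to 2-fold apart.

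By list, condensate genes had the highest median beside Gal of the 14 lists with a gene compared. Of 11 condensate genes that reached the level to be compared, 8 were at least 2-fold higher and 0 lower, with a median log2 ratio of 2.16. Besides those named, Cdkn1a, a cell-cycle inhibitor, was at 672 and 147 CPM, Prdm1 at 54.6 and 8.34 CPM, Bmp4 at 110 and 20.2 CPM, Tbx18 at 181 and 62.0 CPM and Fgf10 at 83.8 and 36.0 CPM. Sox2, a condensate factor too scarce to be compared, was at 32.6 and 2.81 CPM. Of 9 Wnt targets, 6 were higher and 1 lower, with a median of 1.78: Axin2 was at 240 and 66.2 CPM, Nkd1 at 272 and 60.8 CPM and Twist2 at 636 and 254 CPM, while Dkk2 was at 10.7 and 125 CPM. The other 9 condensate genes and 6 Wnt targets did not reach the level to be compared.

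The core Hedgehog targets moved less. Of 4 compared, Ptch1 alone passed 2-fold, at 495 and 226 CPM, while Gli1 was at 62.5 and 33.8 CPM. Hhip was at 112 CPM with Gal and 143 CPM without, and eYFP at 34.6 and 28.7 CPM. Of the upper dermis genes 2 of 4 were higher, among them Crabp1, a retinoid-binding protein gene, at 2709 and 1158 CPM, while 4 of 5 mid and deep dermis genes and 4 of 12 matrix genes were lower. None of 9 S phase genes and none of 9 genes of the G2 and M phases passed 2-fold, with medians of -0.33 and -0.22. Of 5 p53-induced genes Trp53inp1 was higher, at 104 and 28.7 CPM, with a median of 0.83 for the list.

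Since clusters 6 and 13 held nearly all carriers, the comparison was repeated inside them, 482 cells with Gal against 1091 without. Of 3163 genes, 32 (1.01%) were higher and 16 (0.506%) lower at 2-fold. Condensate genes still stood higher, 6 of 11 with a median of 1.02, and 2 of 8 Wnt targets did. Trps1 was at 266 and 73.6 CPM, Tubb3 at 115 and 28.1 CPM, Syne1 at 167 and 44.9 CPM and Rspo3, a Wnt-enhancing secreted protein gene, at 102 and 31.8 CPM. Acta2, the smooth muscle actin gene, was lower at 47.7 and 315 CPM. For the p53-induced list 0 of 6 passed 2-fold and its median was -0.38, so the higher value over all dermal cells was not seen inside these clusters. Of 4 core Hedgehog targets and 4 upper dermis genes, 0 passed 2-fold there, with medians of 0.31 and 0.03. Of 4 mid and deep dermis genes and 11 matrix genes, 0 did, with medians of -0.45 and -0.07. The 2-fold differences of these lists over all dermal cells were thus not seen inside these clusters.

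Gal was also read across ranges of summed list UMIs per thinned cell, in all 4538 mutant cells. Over condensate UMIs of 0 to 1, 2 to 3, 4 to 6 and 7 to 33, Gal was at 12.6, 45.3, 186 and 497 CPM, and the share of cells with it went from 2.30% to 55.0%. Over Wnt target UMIs of 0 to 2, 3 to 4, 5 to 7 and 8 to 22, it was at 10.8, 35.0, 121 and 302 CPM. The steps over Hedgehog target UMIs of 0, 1, 2 to 3 and 4 to 11 were smaller, at 34.2, 93.3, 122 and 169 CPM. Penk over the same condensate ranges was at 75.3, 93.3, 122 and 123 CPM, over the Wnt ranges at 86.1, 85.3, 86.8 and 115 CPM and over the Hedgehog ranges at 48.8, 100.2, 124 and 137 CPM. Gal ran steeply with the condensate and Wnt lists, and Penk changed by less than 3-fold over any of them. The lists rose together: from the lowest to the highest condensate range, Wnt targets went from 1158 to 2483 CPM and Hedgehog targets from 374 to 874 CPM. The lists also differ in their genes and ranges, so the sizes of their steps cannot be ranked.

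**Figure D3:**
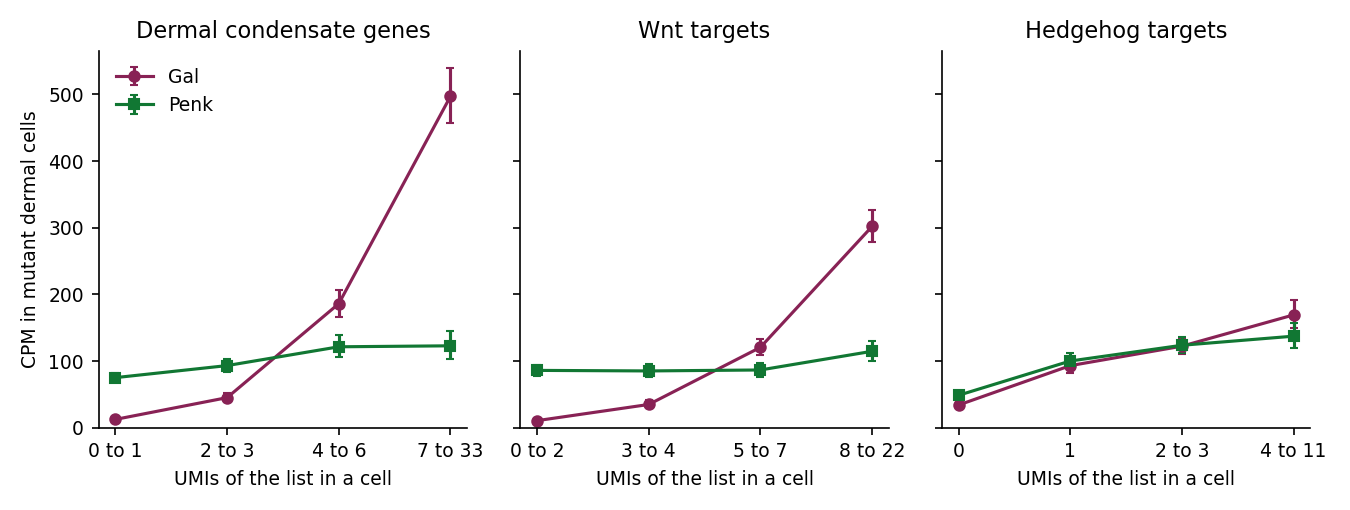
Gal and Penk in CPM in mutant dermal cells thinned to 3000 UMIs, over 4 ranges of the summed UMIs of condensate, Wnt and Hedgehog target genes; bars are 95% Poisson intervals. Gal goes from 12.6 to 497 CPM over the condensate ranges and Penk from 75.3 to 123 CPM.

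Single genes differed in how far they divided Gal, also within a list. With and without a Lef1 UMI Gal was at 345 and 41.1 CPM, and with and without Foxd1 at 312 and 43.6 CPM. Gal was at 476 CPM in mutant cells with both a Foxd1 and a Lef1 UMI, 54.1% of which carried it. With Foxd1 alone it was at 207 CPM, with Lef1 alone at 251 CPM and with neither at 20.0 CPM, where 3.35% carried it. The 67 cells with a Sox2 UMI had 562 CPM, and 61.2% carried Gal. Cells with and without Ptch1 had 145 and 40.5 CPM, whereas those with and without Hhip had 75.7 and 90.3 CPM. Those with and without Dkk1, a secreted Wnt inhibitor gene on the Wnt list, had 86.0 and 86.1 CPM. The 373 cells with an eYFP UMI and the 4165 without differed little in Gal, at 89.4 and 85.8 CPM. With so few eYFP cells detected, a cell without this UMI cannot be taken to lack the transcript. Cells with Mki67, a proliferation marker, had 51.0 CPM and those without 96.8 CPM.

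Fewer genes passed 2-fold beside Penk than beside Gal. In the mutant, 750 cells with Penk were compared with 3788 without, and of 3029 genes 1 (0.033%) was 2-fold higher and 10 (0.33%) lower. The one higher gene was Gal, at 163 CPM in Penk cells and 70.9 CPM in the others, a log2 ratio of 1.14. It fell short of 2-fold without thinning, at 0.80, and with at least 2 Penk UMIs asked of a carrier, at 0.96. Sox18 (60.9 and 29.7 CPM), Hapln3 (82.7 and 43.0 CPM), Lef1 (129 and 71.5 CPM), Gas6, Bcl11a and Nrtn were also among the 8 highest, all under 2-fold with 5 CPM added. Among the lowest were Ccn3, a matricellular gene, at 13.3 and 60.0 CPM, and Itm2a, a transmembrane protein gene, at 189 and 500 CPM, followed by Tmem26, Arhgap20, Hbb-y and Zfhx3. With doublets kept, Gal was still higher, at 1.04, and 1 gene was lower in place of 10. Inside cluster 1, chosen after its Penk level was seen, 407 cells with Penk and 1493 without differed at 2-fold in 0 of 3003 genes upward (0%) and 1 downward (0.0333%), the basement membrane gene Egfl6 at 106 and 231 CPM.

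Control Penk cells had more of a few genes and less of a longer set. Among 830 cells with Penk and 6525 without, 6 of 2997 genes (0.2%) were higher at 2-fold and 37 (1.23%) lower. The 6 were the zinc-finger factor gene Casz1 (127 and 55.9 CPM), the adhesion gene Nrcam (75.9 and 32.7 CPM), the hyaluronan synthase gene Has2 (52.2 and 22.0 CPM), the calcium-binding protein gene Calb1 (180 and 83.8 CPM), Bmp4 (101 and 45.7 CPM) and Ass1 (107 and 51.0 CPM), with Cpne8 and Eps15 just under 2-fold. The lowest were the transcription factor genes Klf4 (9.64 and 99.7 CPM), Zfhx3 (14.9 and 94.7 CPM) and Plagl1 (36.9 and 173 CPM), then Itm2a (129 and 547 CPM), the growth factor gene Igf1 (36.9 and 161 CPM) and Hpgd (10.8 and 56.1 CPM). The lower genes thus stood further from 2-fold than the higher ones. With doublets kept, 2 genes were higher and 20 lower.

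None of 5 upper dermis genes passed 2-fold beside control Penk, with a median of 0.67: Crabp1 was at 4384 and 2312 CPM and Nrgn at 689 and 373 CPM. Of 8 Wnt targets 1 was lower, Dkk2 at 24.5 and 73.8 CPM, and of 4 condensate genes Bmp4 was the 1 higher. Penk was at 64.0 CPM in control cells with a Crabp1 UMI and 7.98 CPM in those without. With and without Lef1 it was at 85.6 and 48.3 CPM, and with and without Dkk1 at 78.9 and 46.9 CPM. Over the 4 ranges of Wnt target UMIs control Penk was at 29.9, 45.7, 62.9 and 72.6 CPM. In the mutant, cells with and without Ptch1 had 127 and 62.0 CPM of Penk, with and without Hhip 117 and 79.7 CPM, and with and without eYFP 106 and 88.8 CPM.

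Over all mutant dermal cells, a Penk UMI was more frequent in cells that carried Gal than in those that did not. After thinning, 136 cells carried both, 365 Gal alone, 614 Penk alone and 3423 neither. Penk was thus in 27.1% of Gal cells (23.3 to 31.3) and 15.2% of the others (14.1 to 16.4), and inside clusters 6 and 13 in 27.6% (23.6 to 31.8) and 15.9% (13.7 to 18.2). By cluster, the shares were 26.9% (22.3 to 31.9) and 14.04% (11.6 to 16.7) in cluster 6, 29.3% (21.9 to 37.6) and 19.7% (15.7 to 24.3) in cluster 13, where the intervals overlapped, and 18.2% (2.28 to 51.8) and 21.4% (19.6 to 23.4) in cluster 1, with 11 Gal cells. Without thinning the shares over all mutant dermal cells were 37.1% and 23.2%. In the control, 0 of the 13 Gal cells carried Penk, for which the interval reaches 24.7%, against 21.5% of the other dermal cells, so no difference could be told there.

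After thinning, most carriers had a UMI of only 1 of the genes, and those sets differed widely. The comparison of 365 cells with Gal and no Penk with 614 with Penk and no Gal was chosen after both were seen. Of the 365, 349 lay in clusters 6 and 13, and of the 614, 405 lay in cluster 1. Differences between the sets could thus not be told apart from those between clusters. The sets also depend on depth, as 37.1% of Gal cells carried Penk without thinning. Of 3269 genes, 116 (3.55%) were higher in the Gal cells and 81 (2.48%) lower. Trps1 was at 251 and 21.7 CPM, Runx1, a transcription factor gene, at 70.3 and 9.77 CPM, and Cyp26b1, a retinoic-acid-degrading enzyme gene, at 73.1 and 11.4 CPM. On the Penk side stood Tshz2 at 11.0 and 158 CPM, Postn at 11.9 and 147 CPM, Dkk2 at 14.6 and 154 CPM, Ptn at 168 and 1342 CPM and the chemokine gene Cxcl12 at 13.7 and 138 CPM.

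The 13 control cells with Gal were few, and none shared its barcode with a mutant cell. After these cells were seen, dermal cells with at least 10 UMIs of Tac1, the precursor gene of substance P, were set apart. There were 7 such control cells, of which 4 carried Gal, with 18 UMIs or 58.1% of all control dermal Gal. Their Gal was at 326 CPM, against 0.233 CPM in the other 7582 cells. Leaving out the Tac1-rich cells of both libraries moved the mutant to control ratio to 300 (175 to 564).

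These Tac1-rich cells stood apart from other dermal cells in further genes. C1ql3 was at 669 CPM against 2.68 CPM in the other control dermal cells, Pde10a at 398 and 11.4 CPM and Ramp3 at 289 and 10.3 CPM. Penk was at 0 UMIs in all 7. All 7 held Xist UMIs and none a Y-linked one, so whether they come from more than 1 embryo cannot be told. The mutant had 3 such cells, of which 2 carried Gal, with 20 and 1 UMIs and 0.959% of mutant dermal Gal, and they had no Foxd1 or Ptch1 UMI, with C1ql3 at 306 CPM against 1.23 CPM. The cell of 20 Gal UMIs, which held 37 Tac1 UMIs, was the whole of the Gal in mutant cluster 9. Unlike the control ones, these 3 cells all carried Penk, with 6 UMIs.

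Other peptide precursor genes were read from a list of 26. Only 2 of them reached the level for the contrast of libraries, Adm and Nppc, of which Adm was higher. Adm, encoding the vasodilator adrenomedullin, was at 10.2 CPM in mutant and 0.861 CPM in control dermal cells, and Nppc, encoding C-type natriuretic peptide, at 14.6 and 30.3 CPM. Scarcer genes also lay apart: Nts, the neurotensin gene, counted 162 mutant dermal UMIs and 0 control ones, which allows up to 0.0538 CPM, and Vip, the vasoactive intestinal peptide gene, 71 and 2. Tac1 had 174 and 492 UMIs and Grp, the gastrin-releasing peptide gene, 34 and 285.

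Nts and Vip were in the mutant cluster that had Penk but little Gal. Cluster 1, with 40.6% of mutant dermal cells, held 87.0% of mutant dermal Nts UMIs, in 46 cells, and 97.2% of Vip UMIs, in 28 cells. It also held 77.8% of Pthlh and 80.5% of Adcyap1 UMIs. Adm was not highest there: cluster 1 held 54.6% of its UMIs at 11.7 CPM, against 26.2 CPM in cluster 0 and 13.96 CPM in cluster 8. Of the 650 Gal cells, 0 carried Nts, which allows a share of up to 0.462%, against 57 of the 4185 others (1.36%). For Vip it was 0 against 30 (0.717%), for Adcyap1 0 against 33 and for Grp 0 against 28. Nppc was in 3 Gal cells (0.462%) and 293 others (7.001%), and Adm in 15 (2.31%) and 242 (5.78%). Nts and Vip themselves shared 1 cell. Inside cluster 1, Vip was in 15 of 653 Penk cells (2.30%) and 13 of 1311 others (0.992%), and Nts in 11 (1.68%) and 35 (2.67%). Of these peptide genes, Nts, Vip, Adcyap1 and Grp were thus in no Gal cell, and 3.23% of Gal cells lay in cluster 1. For Vip, Adcyap1 and Grp that 0 has an interval up to 0.566%, which overlaps the intervals of the other cells. Of mutant dermal cells with and without Penk, 1.24% and 0.414% held Vip, and 0.989% and 0.442% held Grp. For Nts the shares were 0.907% and 1.27%, and for Adcyap1 0.660% and 0.690%.

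**Figure D4:**
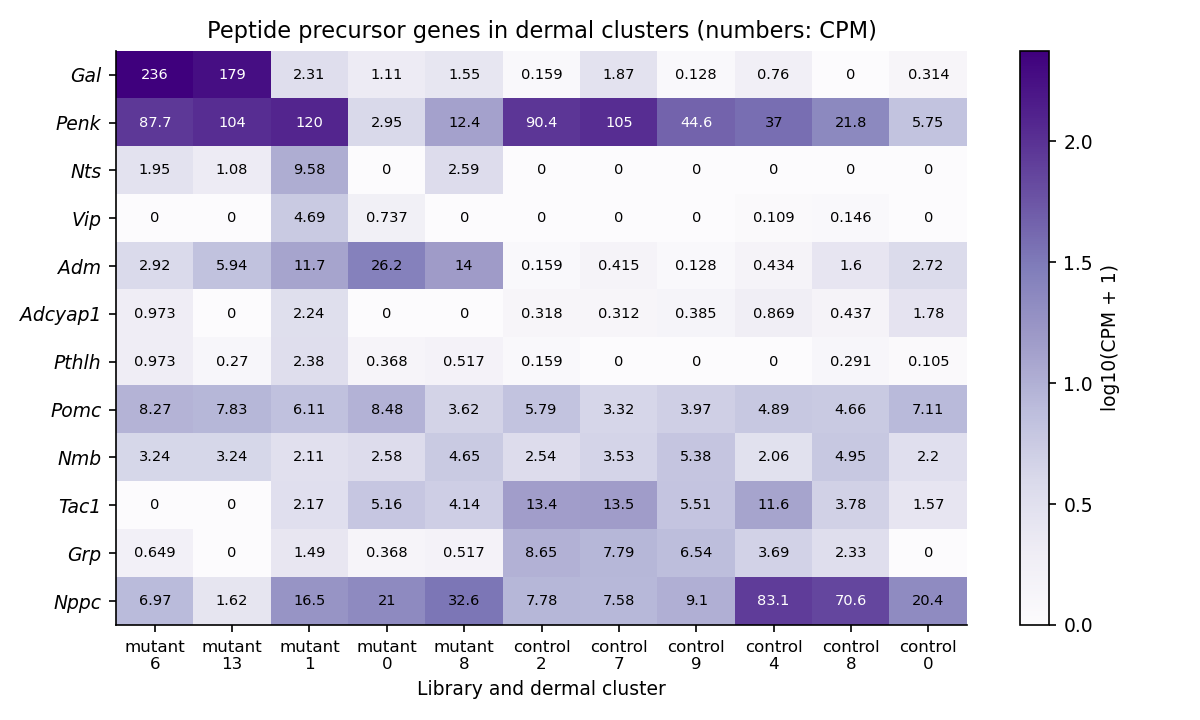
CPM of Gal, Penk and other peptide precursor genes in the dermal clusters that held most cells of each library; color shows log10 of CPM with 1 added and the printed numbers are CPM. Gal is darkest in mutant clusters 6 and 13, while Nts at 9.58 CPM and Vip at 4.69 CPM appear in mutant cluster 1.

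The receptors of both peptides were nearly undetected in the skin cells. Over all kept cells the control had 1, 10 and 3 UMIs of the galanin receptor genes Galr1, Galr2 and Galr3, and the mutant 0, 4 and 5. The enkephalin receptor genes Oprm1 and Oprd1 had 1 and 5 UMIs in the control and 0 and 2 in the mutant. Oprk1, the dynorphin receptor gene, had 67 control UMIs, 50 of them in dermal cells, and 4 mutant UMIs. At this depth such counts cannot show in which cells a receptor is made. Ogfr, a nuclear-envelope protein gene named for binding an enkephalin, was at 60.2 CPM in control and 67.1 CPM in mutant dermal cells.

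Enzymes that could mature the precursors were mostly of the widely expressed kinds. Pcsk1, a neuroendocrine convertase gene, had 2 control and 1 mutant dermal UMIs, and Pcsk2 was at 1.61 and 1.26 CPM. Furin was at 13.55 and 10.1 CPM, Pcsk5 at 20.8 and 37.8 CPM, Pcsk6 at 16.9 and 4.06 CPM, and Cpe, a carboxypeptidase that trims basic residues, at 49.1 and 21.3 CPM in control and mutant. Of 7 processing genes compared, 0 were higher and 2 lower at 2-fold in the mutant, beside 1.73% and 1.02% of all genes. No secretory granule gene reached 2 CPM in either library, Scg2 being highest at 1.99 and 1.93 CPM. Of 6 peptide-degrading genes compared none passed 2-fold, and Mme, the enkephalin-degrading neprilysin, was at 63.3 and 31.5 CPM. Dermal cells thus held precursor transcripts with little of the neuroendocrine convertase and granule genes.

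Outside the dermis both genes were low, with exceptions in the epidermal-like and erythroid-like classes. Muscle-like cells had 0.203 and 0.465 CPM of Gal and 1.22 and 0.465 CPM of Penk in control and mutant. Mural-like cells had 6.63 and 8.02 CPM of Penk with no Gal UMI, Schwann-like cells 1.84 and 5.47 CPM of Penk with no Gal UMI, and macrophage-like cells at most 1.003 CPM of either. The 4 Gal UMIs of mutant endothelial-like cells, 3.12 CPM, came from 1 cell. In the order of control Penk levels, dermal cells were followed by erythroid-like cells at 29.0 CPM (17.95 to 44.3), the cluster left without a name at 17.4 CPM (14.6 to 20.6), epidermal-like cells at 12.6 CPM (9.90 to 15.9) and mural-like cells at 6.63 CPM (3.42 to 11.6). Below the dermal cells, each of these overlapped the next within counting error. All 21 control erythroid-like Penk UMIs were in cluster 17, where Col1a1 was at 1133 per 1000000 UMIs not from hemoglobin genes.

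Epidermal-like cells had 12.6 CPM of Penk in the control (9.90 to 15.9) and 4.75 CPM in the mutant (3.56 to 6.21), carried by 9.75% and 2.88% of cells at median depths of 9783.5 and 7657 UMIs. Its level differed between clusters, and cluster 23 held 25 of the 73 control and 21 of the 53 mutant UMIs. Cluster 23, led by Krtdap and Krt17, had 26 control and 61 mutant cells with Penk at 108 (69.6 to 159) and 38.8 CPM, against 10.7 and 3.17 CPM in cluster 10 and 5.52 and 2.75 CPM in cluster 11.

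Mutant erythroid-like cells had 34.6 CPM of Gal and 53.1 CPM of Penk. Of their 84 Gal and 129 Penk UMIs, 82 and 128 were in cluster 17, where per 1000000 UMIs not from hemoglobin genes Gal was at 63.1, Penk at 98.4, the collagen gene Col1a1 at 774 and Foxd1 at 88.4. Cluster 24, the other erythroid-like cluster, had 3.12 CPM of Gal and 1.56 CPM of Penk. Hemoglobin-rich barcodes of under 1000 genes, taken as a measure of free RNA, held 5 Gal UMIs in 2448 barcodes, 4.76 per 1000000 UMIs not from hemoglobin genes, and 131 of Col1a1. Gal thus came with dermal transcripts in that cluster, and the part of cell mixtures in it was not tested. A cluster left without a name, led by Ebf2, Sfrp2 and Ptn, had 0.258 and 6.04 CPM of Gal and 17.4 and 22.8 CPM of Penk in control and mutant.

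**Figure D5:**
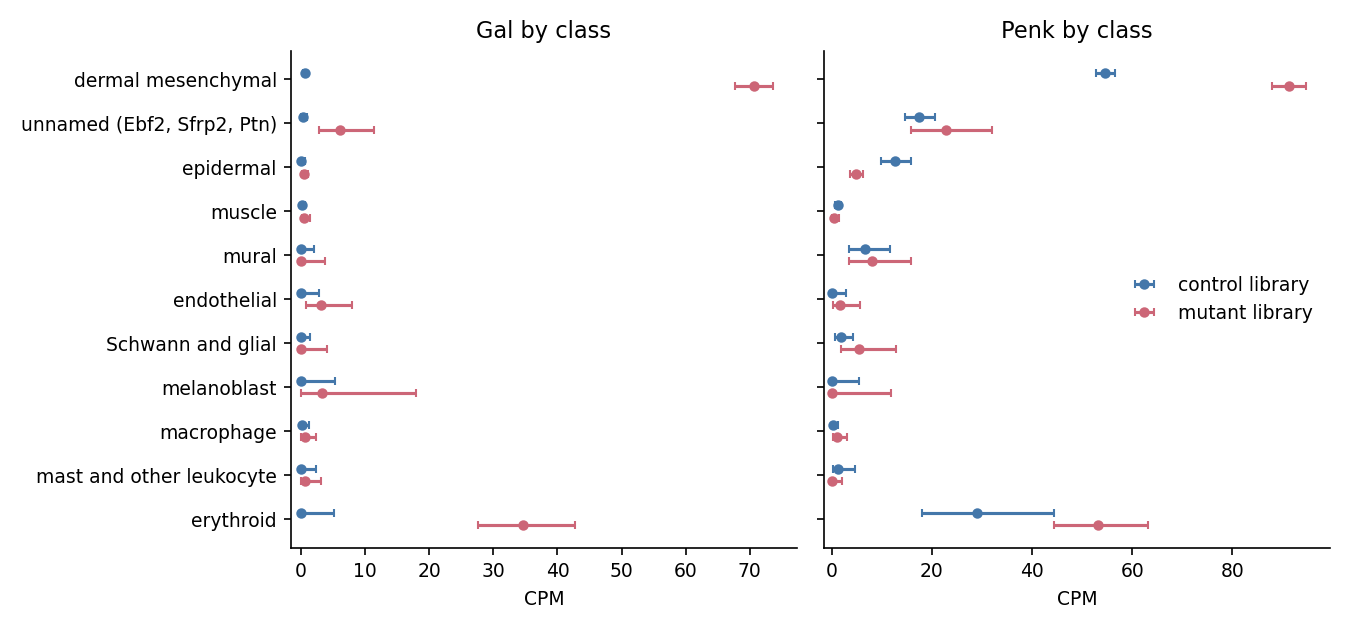
Gal and Penk in CPM by marker-defined class and library, with 95% Poisson intervals as bars. Dermal cells of the mutant have the most of both, 70.6 CPM of Gal and 91.3 CPM of Penk, and among mutant classes erythroid-like cells come next.

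Across 21 sums of a class in a library, the genes most like Gal by Pearson correlation of log2(CPM + 1) were Foxd1 (0.92), Hapln3 (0.86), Hhip (0.86), Gm5084 (0.84) and Ptch1 (0.80), among 9183 genes that reached 20 CPM. Those most like Penk were Wnt2 (0.88), Epha4 (0.88), Tex15 (0.87), Kcnk2 (0.87) and St7 (0.87). Gal and Penk correlated at 0.57. The sums share libraries and depth, so these values only describe how alike the patterns were.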

How the data were processed

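The data are deposited UMI counts per gene and cell barcode, whole numbers in 1 sparse matrix per library, made by the authors with Cell Ranger 5.0.1 on mm10, per the submitters' processing notes. They held 13566 control barcodes with 109629368 UMIs and 11909 mutant barcodes with 73809828 UMIs. From these counts, cells with at least 1000 genes and at most 10% mitochondrial UMIs were kept. Doublets were called with Scrublet at an expected rate of 8% and left out: 567 control and 262 mutant cells (4.68% and 2.98%). Both libraries were clustered together with scanpy 1.11.5 and leidenalg 0.10.2, on 2000 variable genes without Gal and Penk, 30 components, 15 neighbours and resolution 1, with no batch correction. A cluster took the class whose fixed marker list stood highest and stayed unnamed where its leading genes went against it.

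UMIs were summed over a class, cluster or set of cells and scaled to 1000000 (CPM). Counts at the 3′ end do not depend on transcript length, and levels of different genes were not compared. Intervals are exact Poisson for CPM, exact Clopper-Pearson for shares and conditional binomial for ratios, all at 95%, and a count of 0 is given with a limit of 3 counts. For genes beside Gal or Penk, each cell was thinned to 3000 UMIs, shallower cells were left out, and genes at 50 CPM or more in either set were called at 2-fold with 5 CPM added; libraries were compared at 10 CPM or more. The named genes are the 12 highest and 6 lowest ratios beside Gal, the 8 highest and 6 lowest beside Penk, and any compared member of the gene lists, a few of which are not reported here; other genes named were chosen after their values were seen. The members and lists were chosen with earlier results of these data known. The scripts were tested on simulated data. Gal and Penk were matched by symbol in GENCODE M21 and RefSeq GRCm38.p6.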

Additional observations from a re-analysis of the deposited data

How the results depend on the processing

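With 1 library per group, no library could be left out and no p-value exists. No paired analysis was possible because each group has 1 library. Shares and counts of genes depend on depth and on the least level required, so they describe these settings only. The alternatives covered the 18 genes of highest and lowest ratio beside Gal over all dermal cells, and the 14 beside Penk in each library. None of these log2 ratios changed sign, and each mutant to control ratio of Gal and Penk stayed above 1. Ratios of other genes named beside Gal or Penk were not part of the alternatives. Levels, shares and counts of genes have no sign and were judged by size only. The 18 genes beside Gal stayed past 2-fold in each of 8 settings. Of the 14 beside Penk, 8 to 14 were past 2-fold in the control and 1 to 8 in the mutant. These counts can include genes that were under 2-fold in the main setting, so they do not give the calls kept. Of the alternatives for the principal results, 117 stayed within counting error or 1.5 times and 80 moved. Alternatives on unnamed clusters, shared barcodes and Tac1 were added after the data were seen.

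Control Gal was 1.07 CPM in Xist cells, 0.293 in Y cells and 0.233 without Tac1-rich cells, with ratios of 62.9, 235 and 299.8. Of the 24 control Gal UMIs in Xist cells, 18 were in Tac1-rich cells. Mutant Gal was 74.5 CPM with doublets kept, 74.7 at 5% mitochondrial UMIs, 79.0 at resolution 0.5, 67.4 in Xist cells and 67.7 with unnamed dermal-marker clusters counted as dermal, or 67.6 with that and 500 genes or 5%. Control Penk was 57.9, 50.7 (500 genes), 59.3, 62.8 and 51.6 (Y cells) CPM, and 50.04 with the unnamed clusters counted, which brought the 4 clustering alternatives to 50.7, 50.1, 50.3 and 50.2. Mutant Penk was 96.5, 97.6, 102, 77.8 (Xist) and 98.9 (Y) CPM, with ratios of 1.42 (Xist), 1.92 (Y) and 1.76 (unnamed counted). The cause of these moves was not tested.

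The Gal share was 0.162% in the control thinned to 5000 UMIs and 0.171% unthinned, and in the mutant 8.98% at 2000 UMIs, 13.4% unthinned, 6.43% at 2 UMIs or more and 12.6% at resolution 0.5. The Penk share was 8.76%, 17.5%, 21.4%, 2.81% and 13.1% in the control (2000, 5000, unthinned, 2 UMIs, resolution 0.5) and 10.3% with unnamed clusters, and 12.7%, 22.7%, 25.1%, 5.71% and 18.9% in the mutant, 14.7% in Xist and 18.04% in Y cells. Penk in Gal cells was 19.7%, 34.7%, 37.1% and 11.6% (2000, 5000, unthinned, 2 UMIs).

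Beside Gal, 210 genes were higher and 209 lower at 20 CPM, and 281 and 336 with no minimum. Beside mutant Penk, 2 were higher with 1 CPM added, 4 higher and 18 lower at 20 CPM, 4 and 34 with no minimum, 0 and 4 unthinned, and 1 lower with doublets and 4 at 2 UMIs. Beside control Penk, 3 were higher with 10 CPM added, 79 lower at 20 CPM, 10 and 123 changed with no minimum, 2 and 20 with doublets, and 17 were higher at 2 UMIs. Between libraries, 138 were lower with 1 CPM added, 48 with 10 CPM, and 62 higher and 36 lower at 50 CPM. Mutant epidermal-like cells had 3.54 CPM of Gal and 8.88 CPM of Penk with doublets kept.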

Other observations

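Barcodes below the filter also held Gal in the mutant library. Those with under 1000 genes and under 50% hemoglobin UMIs held 20 Gal UMIs in 639 barcodes, 30.3 per 1000000 UMIs not from hemoglobin genes (18.5 to 46.8), with Col1a1 at 675. They were used in no comparison.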
